A study of Homo sapiens with 6 samples.

Results

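The genes that build the tight junction and set the apical side of an epithelial cell were followed in the human embryonic stem cell line H1 at day 2 of hematopoietic differentiation, with and without deletion of SNAI1, a zinc-finger repressor. The list holds 37 genes chosen by symbol, 21 claudins and 16 other junction and polarity genes, among 37803 symbols that are listed once in both deposited tables. All but CLDN8, which is listed once in the second table only, were found once in both tables. Of the members, 25 had a mean of at least 1 FPKM over the 6 libraries and were tested together with 13884 other genes. FPKM is a transcript level, fragments counted relative to transcript length and to the mapped total.

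The study deleted SNAI1 with CRISPR/Cas9 to ask what it does when pluripotent cells turn into mesoderm. Per the labels, every group was grown for 2 days in a custom mTeSR1 medium with BMP4 (50 ng/ml) and activin A (40 ng/ml), doses that the methods of the study give the other way round. The groups were undeleted cells (WT, n = 2) and deleted cells of titles that start with SNAI1_1 (n = 2) and SNAI1_2 (n = 2). The study describes a pair of SNAI1 knockout lines with frameshifts, the labels do not say whether the leading number stands for these lines, and whether a line is 1 clone is not given in the sources used here. Each table holds 1 library of every group. The study speaks in general of independent experiments, but the labels do not say whether libraries of a group came from separate cultures, so the p-values measure the spread between these libraries, which may be technical.

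SNAI1 mRNA does not check the labels, because a frameshift can leave the transcript in place. SNAI1 was 37.1 and 36.4 FPKM in WT (first and second table, the order used throughout), 51.6 and 47.8 in SNAI1_1 and 68.6 and 55.0 in SNAI1_2. The libraries had FPKM sums of 602045 to 632511 over symbols listed once in a table, and read totals are unknown. The mesoderm label was checked on 8 markers, none of them at 0, whose summed level was 1599 to 1671 FPKM in WT and 1091 to 1172 in the deleted libraries. Of these 8 markers, 6 fell and 1, TBXT (listed as T), rose. The summed level of 6 pluripotency markers was 895 to 949 FPKM in WT and 1116 to 1330 in the deleted libraries. POU5F1 makes up most of this sum (485 and 630 FPKM in WT, 677 to 1014 in the deleted libraries). POU5F1, NANOG and DPPA4 rose, while SOX2, TDGF1 and ZFP42 did not pass. The summed level of 5 endoderm markers was 2825 to 3337 FPKM in WT and 1275 to 1929 in the deleted libraries. CER1 makes up nearly all of the endoderm sum (3262 and 2550 FPKM in WT, 977 to 1797 in the deleted libraries). SOX17 and FOXA1 rose by 0.63 and 0.58 on the log2 scale, FOXA2 fell by 0.54 and HHEX did not pass. FOXA1 had a WT mean of 0.661 FPKM, reached the mean needed for a test only through the deleted libraries, and passed in neither deleted group alone. SOX17 was 63.9 and 251 FPKM in WT and 120 to 338 in the deleted libraries. It did not pass in SNAI1_2 alone, and FOXA2 did not pass in SNAI1_1 alone. The 10 amnion and trophoblast markers summed to 36.2 to 56.8 FPKM in WT and 37.8 to 64.5 in the deleted libraries, with 2 or 3 of them at 0 in every library. Of the 4 amnion and trophoblast markers tested, TFAP2A and GABRP rose by 1.82 and 1.16, GATA3 fell by 0.87 and TFAP2C did not pass. GABRP was 0.0415 and 0.149 FPKM in WT and reached the mean needed for a test only through the deleted libraries. Of the markers too low to test, ISL1 was 1.82 and 1.04 FPKM in WT and 0.187 to 0.597 in the deleted libraries. KRT7, also too low, was 0.334 FPKM in both WT libraries and 0.832 to 1.18 in the deleted ones. In bulk RNA, fewer cells of a type and less RNA per cell cannot be told apart, and the part of these markers in the results below was not tested.

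Tight junctions seal the space between neighbouring epithelial cells near their apical side. Claudins form the strands, occludin and its relatives run within them, and scaffolds such as ZO-1 and cingulin tie the strands to actin. The Crumbs and PAR complexes mark the apical domain, and LLGL proteins oppose them from the basolateral side. SNAI1 is known as a repressor of epithelial genes that binds the E-box CAGGTG, and cells that leave an epithelium to become mesoderm take their junctions apart.

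Because SNAI1 is known to bind this E-box, the promoters of 6 members whose mRNA rose are shown first, 5 that hold its letters and CLDN4, which does not. RefSeq windows (GRCh38.p14, 300 bases, from 250 bases before the start site, which is window position 251) were matched for 25 of the 37 members, with 38 windows. CAGGTG was searched on both strands, so that CACCTG counts as a match on the opposite strand, and the letters are 1 form of the general E-box CANNTG. Capitals mark the matches, and each window is written 5′ to 3′ on the strand of its gene.
CLDN7, chr17:7262429-7262728, minus strand: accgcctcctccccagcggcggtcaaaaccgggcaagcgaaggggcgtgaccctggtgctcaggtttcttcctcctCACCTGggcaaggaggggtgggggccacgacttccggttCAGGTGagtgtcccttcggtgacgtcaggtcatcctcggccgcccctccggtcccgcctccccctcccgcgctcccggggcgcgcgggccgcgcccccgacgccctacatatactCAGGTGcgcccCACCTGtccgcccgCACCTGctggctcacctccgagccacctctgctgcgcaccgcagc
CRB3, chr19:6464021-6464320, plus strand: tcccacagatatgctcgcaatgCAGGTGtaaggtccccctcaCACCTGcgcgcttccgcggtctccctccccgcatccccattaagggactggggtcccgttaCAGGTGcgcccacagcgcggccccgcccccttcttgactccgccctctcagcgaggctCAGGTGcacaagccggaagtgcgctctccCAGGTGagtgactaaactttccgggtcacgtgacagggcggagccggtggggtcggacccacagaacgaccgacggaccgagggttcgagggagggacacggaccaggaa
OCLN, chr5:69492540-69492839, plus strand: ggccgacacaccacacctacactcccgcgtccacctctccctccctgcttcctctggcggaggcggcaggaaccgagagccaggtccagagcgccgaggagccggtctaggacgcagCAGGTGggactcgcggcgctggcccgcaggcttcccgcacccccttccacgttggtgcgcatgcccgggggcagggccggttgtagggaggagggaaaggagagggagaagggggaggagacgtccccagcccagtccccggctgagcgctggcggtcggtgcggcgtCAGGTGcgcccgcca
CLDN3, chr7:73770221-73770520, minus strand: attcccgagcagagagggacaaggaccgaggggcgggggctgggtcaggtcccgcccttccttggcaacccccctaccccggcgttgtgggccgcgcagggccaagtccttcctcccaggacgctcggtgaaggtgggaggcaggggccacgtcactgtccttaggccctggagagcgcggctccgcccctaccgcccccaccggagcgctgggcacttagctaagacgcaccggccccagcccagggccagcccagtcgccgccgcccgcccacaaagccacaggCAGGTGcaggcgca
CLDN6, chr16:3018134-3018433, minus strand: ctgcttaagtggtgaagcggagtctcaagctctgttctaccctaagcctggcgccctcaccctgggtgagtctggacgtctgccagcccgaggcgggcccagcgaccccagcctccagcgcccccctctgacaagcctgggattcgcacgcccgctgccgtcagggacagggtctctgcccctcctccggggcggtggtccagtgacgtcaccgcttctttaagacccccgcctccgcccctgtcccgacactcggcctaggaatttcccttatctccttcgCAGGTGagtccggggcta
CLDN4, chr7:73830746-73831045, plus strand: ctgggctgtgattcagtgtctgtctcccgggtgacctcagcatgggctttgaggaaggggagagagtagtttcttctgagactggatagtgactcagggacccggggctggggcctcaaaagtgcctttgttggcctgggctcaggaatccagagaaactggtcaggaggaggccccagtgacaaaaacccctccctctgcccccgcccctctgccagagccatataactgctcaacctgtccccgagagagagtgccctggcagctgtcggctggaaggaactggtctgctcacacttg

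The windows of CLDN7 and CRB3 held 5 matches each. In CLDN7 these began at window positions 77, 116, 231, 242 and 256, of which 77, 242 and 256 were on the opposite strand. In CRB3 they began at positions 23, 43, 104, 162 and 191, with position 43 on the opposite strand. OCLN has another window that overlaps the one shown and holds 1 match. CLDN3 and CLDN6 had 1 match each, at positions 287 and 283, downstream of the start site. The CLDN4 window had none, although CLDN4 had the largest log2 difference of the members, and CLDN7 has a further window with none.

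Over the members, 13 of 38 windows (34.2%) held the letters, against 20.6% of all 35116 windows, and 11 of 25 genes (44%) against 24.1% of 27305 genes. The share by gene counts a match in any window, and the members had more windows per gene than all genes, which raises their share. Within the 200 bases nearest to the start site the shares were 34.2% of member windows and 14% of all windows. Of 14 members with a window whose mRNA rose, 7 held a match (CLDN3, CLDN6, CLDN7, OCLN, TJP1, TJP3 and CRB3). Of 8 members with a window that were too low to test, 4 held one as well (CLDN14, CLDN16, CLDN18 and ILDR1). TJP1, TJP3, CLDN14, CLDN16 and CLDN18, like CLDN7, also have windows without a match. The 1 member with a window that fell and the 2 that did not pass the test held none. A match describes the letters of a window and is not a binding site.

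To find out whether claudin mRNA differed between the labelled genotypes, both deleted groups were set against WT on the log2(FPKM + 1) scale with limma, and a gene was called at a Benjamini-Hochberg adjusted p under 0.05 over all 13909 genes tested. Claudin mRNA was higher in the deleted libraries. Of 10 tested claudins with a WT mean of at least 1 FPKM, 7 rose, 0 fell and 3 (CLDN12, CLDN15 and CLDN19) did not pass. CLDN3 also rose but passed the filter only through the deleted libraries, which makes 8 of 11. Over all genes tested, 15.8% were called higher and 15.4% lower in this comparison, 2201 and 2147 genes. Shares over all genes tested, here and below, include genes with a WT mean under 1 FPKM. This background depended on the libraries, with 1196 higher and 632 lower without WT of the first table, 1118 and 610 without WT of the second, 1563 to 1609 and 1117 to 1231 without any 1 deleted library, and 766 and 299 without the term for the table. The median log2 difference was 1.22 over the 11 tested claudins, 0.90 without CLDN3 and -0.05 over all genes tested.

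CLDN3 and CLDN4, barrier-forming claudins that neighbour each other on chromosome 7 with 0 coding genes between them, had the largest differences of the members and low levels in WT. CLDN4 was 1.72 and 2.34 FPKM in WT, 27.4 and 39.1 in SNAI1_1 and 26.6 and 47.0 in SNAI1_2. Every deleted library was thus 15.5-fold to 20.1-fold above the WT library of its table, with a log2 difference of 3.54 ± 0.12 (SE) (adjusted p = 0.00018.) CLDN3 was 0.25 and 0.628 FPKM in WT, 8.98 and 13.3 in SNAI1_1 and 8.32 and 12.8 in SNAI1_2. The groups did not overlap, and the log2 difference was 3.03 ± 0.10 (adjusted p = 0.000181), a size that the added 1 FPKM holds down for a gene this low in WT.

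CLDN7, a basolateral claudin that binds EPCAM, was already present in WT. It was 17.7 and 18.6 FPKM in WT, 87.5 and 68.3 in SNAI1_1 and 82.0 and 68.1 in SNAI1_2. All 4 deleted libraries were above both WT libraries, by 3.67-fold to 4.93-fold within a table, and the log2 difference was 2.01 ± 0.10 (adjusted p = 0.000292). Exons of CLDN7 overlap those of ELP5 on the opposite strand, and strand use in the counting is not given in the sources used here. How reads were split between CLDN7 and ELP5 was not tested. ELP5 itself was lower in the deleted libraries, with a log2 difference of -0.26 (adjusted p = 0.0456).

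CLDN6, the claudin known from pluripotent cells and early embryonic epithelia, was the most abundant claudin in every library. Its level was 145 and 178 FPKM in WT, 390 and 424 in SNAI1_1 and 395 and 446 in SNAI1_2. The groups did not overlap, the ratios within a table were 2.38 to 2.72, and the log2 difference was 1.36 ± 0.05 (adjusted p = 0.000182.) CLDN6 shares exonic bases with TNFRSF12A, a TNF receptor family gene on the opposite strand. TNFRSF12A was 27.6 and 34.5 FPKM in WT and 120 to 172 in the deleted libraries, with a log2 difference of 2.15 (adjusted p = 0.000162), and how reads were split between these genes was not tested. CLDN9, the neighbour of CLDN6 on chromosome 16, stayed under 1 FPKM, at 0.118 and 0.147 in WT and 0.269 to 0.888 in the deleted libraries.

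CLDN1, the barrier claudin of the epidermis, was 2.14 and 1.94 FPKM in WT, 8.47 and 7.64 in SNAI1_1 and 7.87 and 6.85 in SNAI1_2. The groups were far apart relative to their spread, with ratios of 3.54 to 3.97 and a log2 difference of 1.52 ± 0.09 (adjusted p = 0.000544). CLDN11, the claudin of myelin and of Sertoli cell junctions, was the second most abundant claudin in WT. It was 19.8 and 25.0 FPKM in WT, 51.6 and 53.3 in SNAI1_1 and 53.9 and 53.6 in SNAI1_2. The 4 deleted libraries lay close together and above WT, with a log2 difference of 1.22 ± 0.08 (adjusted p = 0.00073.) CLDN11 shares exonic bases with a protein-coding model of the same strand.

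CLDN10, which forms ion-selective pores, and CLDN23 had smaller differences. CLDN10 was 6.80 and 5.98 FPKM in WT, 9.58 and 9.46 in SNAI1_1 and 10.4 and 10.3 in SNAI1_2, a log2 difference of 0.57 ± 0.09 (adjusted p = 0.00755). CLDN23 was 3.80 and 3.58 FPKM in WT, 5.59 and 6.40 in SNAI1_1 and 5.48 and 6.43 in SNAI1_2, a log2 difference of 0.57 ± 0.11 (adjusted p = 0.0149). Neither gene had overlapping groups, but both calls depended on the model. Without a term for the table the adjusted p was 0.0679 for CLDN10 and 0.0908 for CLDN23. CLDN10 lost its call without the WT library of the second table (0.0733), and CLDN23 lost it without either WT library, either SNAI1_1 library or the SNAI1_2 library of the second table (0.052 to 0.118). CLDN10 shares exonic bases with DZIP1 on the opposite strand, which had a log2 difference of -0.38.

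Of the 3 claudins that did not pass, CLDN12, a widely expressed atypical claudin, was 15.0 and 9.82 FPKM in WT, 16.4 and 12.2 in SNAI1_1 and 17.3 and 12.9 in SNAI1_2. It was above WT in both tables, but the tables differed more than the groups (log2 difference 0.24, 95% interval 0.04 to 0.43, adjusted p = 0.0748), and its exons overlap those of CDK14 and GTPBP10. CLDN15, a cation pore of the intestine, was 1.81 and 2.10 FPKM in WT and 1.44 to 1.99 in the deleted libraries, with an interval of -0.44 to 0.20. CLDN19, a claudin of the kidney tubule, was 3.54 and 4.46 FPKM in WT, 2.31 and 4.83 in SNAI1_1 and 2.86 and 5.27 in SNAI1_2. Its deleted libraries were below WT in the first table and above it in the second, with an interval of -0.48 to 0.28. These intervals do not show that the 3 genes were alike in the groups.

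**Figure D1:**
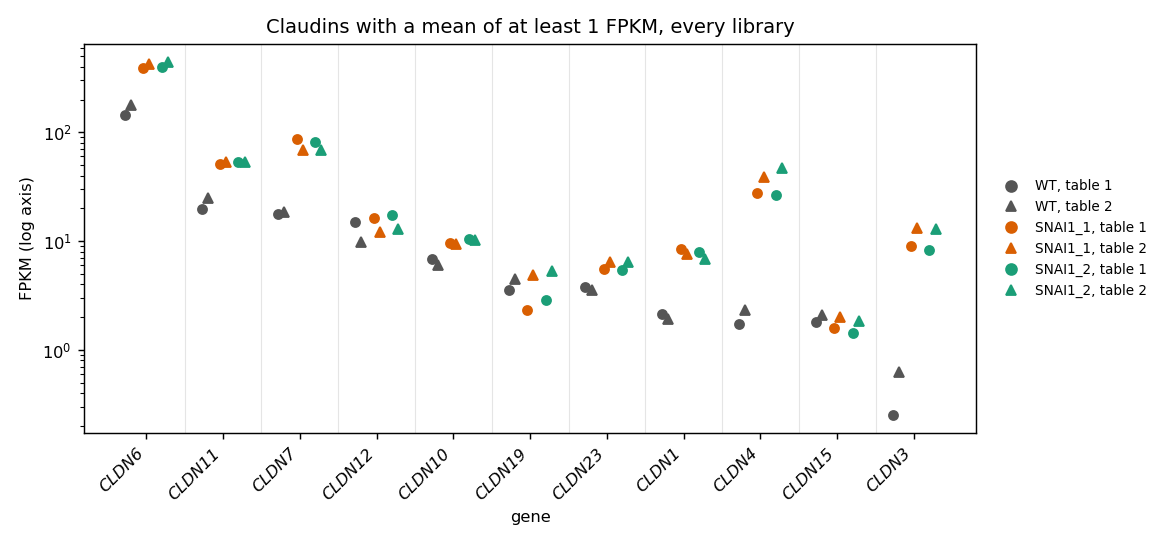
Level of the 11 tested claudins in every library, in FPKM on a log axis, with WT in grey, SNAI1_1 in orange and SNAI1_2 in green, circles for the first table and triangles for the second. CLDN3 and CLDN4 show the widest gap between WT and the deleted libraries, and CLDN6 is the highest claudin throughout.

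The claudins that were not tested stayed below 1 FPKM in every library. They include CLDN5, the claudin of blood vessel endothelium (0.157 to 0.455 FPKM), CLDN2, a pore of leaky epithelia (0 to 0.122), and CLDN18, known from stomach and lung (0.0461 to 0.0842). CLDN14 was at most 0.122 FPKM, CLDN16 at most 0.305 and CLDN20 0.134 to 0.361. CLDN17 was listed at 0 in 6 libraries, CLDN8 at 0 in the 3 second-table libraries, and CLDN22 had values under 0.0001 throughout. CLDN9 and CLDN20 had higher levels in the 4 deleted libraries than in WT, without overlap and without a test.

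Because FPKM is scaled by length, levels of different claudins can be added. The summed claudin level was 219 and 254 FPKM in WT, 611 and 642 in SNAI1_1 and 612 and 674 in SNAI1_2. Within the first table the deleted libraries held 2.79 and 2.80 times the WT sum, and within the second 2.53 and 2.66 times. CLDN6 made up 66.4% and 70.2% of the sum in WT and 63.9% to 66.3% in the deleted libraries, so the sum followed CLDN6 for the most part, but without CLDN6 it was still 2.89 to 3.01 times the WT value.

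The order of the claudins changed below CLDN6. In WT it was CLDN11, CLDN7, CLDN12 and CLDN10 in both tables. In all 4 deleted libraries CLDN7 came before CLDN11 and CLDN4 was next. In WT, CLDN11 and CLDN7 were close, at 19.8 and 17.7 FPKM in the first table, and in the deleted libraries they were separated, at 51.6 and 87.5 in SNAI1_1 of that table. CLDN7 took 8.1% and 7.32% of the claudin sum in WT and 10.1% to 14.3% in the deleted libraries. CLDN4 took 0.923% in WT of the second table and 6.09% and 6.98% in the deleted libraries of that table.

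**Figure D2:**
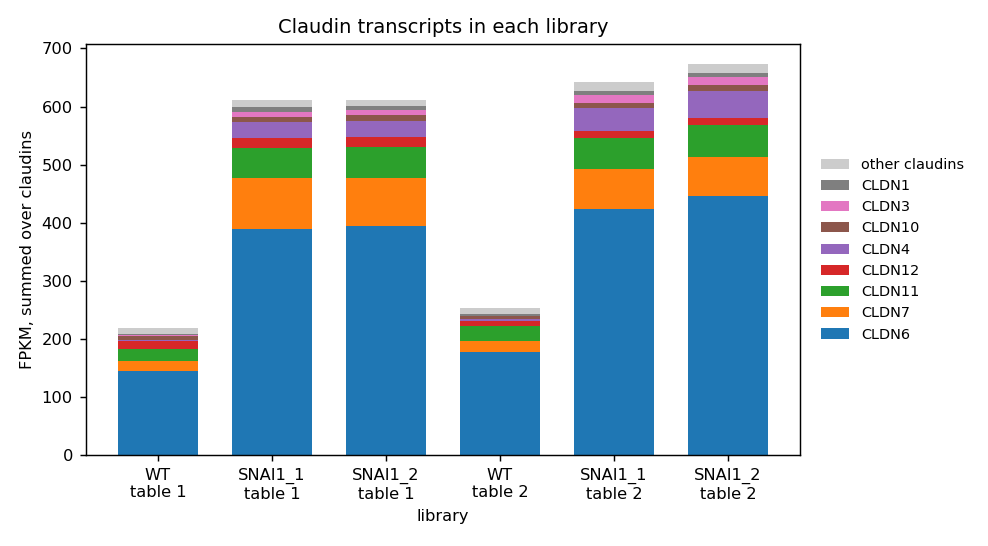
Claudin transcripts in each of the 6 libraries, as FPKM summed over claudins, with the 8 claudins of highest mean level as coloured segments and the others in grey. The bars of the 4 deleted libraries reach 611 to 674, those of WT 219 and 254, and CLDN6 fills most of every bar.

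To see whether the rest of the junction followed, the 16 other members were grouped by role. Of 13 tested members with a WT mean of at least 1 FPKM, 10 rose, 2 fell (JAM3 and CGNL1) and 1 (PARD6B) did not pass, where 15.8% of all genes tested were called higher and 15.4% lower. TJP3 also rose but, like CLDN3, passed the filter only through the deleted libraries. The median log2 difference was 0.80 over the 14 tested members and 0.69 without TJP3. In a count that uses no model, all 4 deleted libraries lay above both WT libraries for 7 of 10 claudins and 8 of 13 other members with a WT mean of at least 1 FPKM, and below both for 0 and 2. CLDN3 and TJP3 lay above as well. Over all genes tested, 16.9% lay above and 17.1% below in this way. This count, like each statement that groups did or did not overlap, sets libraries of different tables against each other.

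Occludin and its relatives, the 4-pass membrane proteins of the strands, all rose. OCLN was 2.15 and 1.90 FPKM in WT, 18.9 and 14.0 in SNAI1_1 and 19.2 and 15.9 in SNAI1_2. This was a 7.36-fold to 8.93-fold rise within a table, without overlap, and the log2 difference of 2.56 ± 0.10 (adjusted p = 0.000183) was the largest of the 14 tested members outside the claudins. MARVELD3 was 1.65 and 3.43 FPKM in WT, 10.9 and 18.0 in SNAI1_1 and 9.84 and 18.0 in SNAI1_2. Its level differed between the tables in every group, but the log2 difference of 2.10 ± 0.09 (adjusted p = 0.000196) was alike in both tables, from 2.03 to 2.17. MARVELD3 overlaps PHLPP2 on the opposite strand, which rose by 0.61.

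MARVELD2 encodes tricellulin, which seals the corners where 3 cells meet, and neighbours OCLN on chromosome 5. It was 1.66 and 1.34 FPKM in WT, 2.63 and 3.09 in SNAI1_1 and 3.19 and 2.19 in SNAI1_2, a log2 difference of 0.59 ± 0.16 (adjusted p = 0.0426.) The groups did not overlap, but the adjusted p was the highest among the called members. It was lost in each deleted group taken alone (adjusted p = 0.063 and 0.0836), without the term for the table (0.148), and on leaving out any library other than SNAI1_1 of the first table (0.0596 to 0.207).

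LSR, the angulin that brings tricellulin to those corners, was 41.0 and 71.0 FPKM in WT, 60.7 and 107 in SNAI1_1 and 66.3 and 111 in SNAI1_2. The first-table deleted libraries were below the second-table WT library, so the groups overlapped when the tables were mixed, while within a table the ratios were 1.48 to 1.62. With the term for the table the log2 difference was 0.62 ± 0.05 (adjusted p = 0.000954), and without it the adjusted p was 0.44. ILDR1, the other angulin among the members, stayed at 0.104 to 0.609 FPKM and was not tested.

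The junctional adhesion molecules, immunoglobulin proteins that hold neighbouring membranes together beside the strands, went in opposite directions. F11R, which encodes JAM-A, was 35.0 and 23.9 FPKM in WT, 55.8 and 39.4 in SNAI1_1 and 59.0 and 38.8 in SNAI1_2. It rose by 0.69 ± 0.06 on the log2 scale (adjusted p = 0.00107). Another protein-coding gene model on the same strand shares exonic bases with F11R and had the same log2 difference. How reads were split between F11R and this model was not tested. JAM3, which encodes JAM-C, was 32.3 and 27.7 FPKM in WT, 19.2 and 15.1 in SNAI1_1 and 22.3 and 15.0 in SNAI1_2. All 4 deleted libraries were below both WT libraries, with a log2 difference of -0.73 ± 0.09 (adjusted p = 0.00368). In WT the first-table levels of F11R and JAM3 were close, at 35.0 and 32.3 FPKM, and in SNAI1_2 of that table they were 59.0 and 22.3. JAM3 overlaps NCAPD3 on the opposite strand, which had a log2 difference of -0.36, and without the term for the table the adjusted p was 0.221 for F11R and 0.117 for JAM3. JAM2 stayed at 0.201 to 0.625 FPKM and was not tested.

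Among the scaffolds, TJP1 encodes ZO-1, the adaptor between strand proteins and actin. TJP1 was 14.9 and 10.9 FPKM in WT, 26.6 and 22.6 in SNAI1_1 and 26.4 and 24.2 in SNAI1_2, a 1.77-fold to 2.23-fold rise without overlap (log2 difference 0.92 ± 0.09, adjusted p = 0.00165). TJP3, which encodes the epithelial ZO-3, was 0.551 and 1.20 FPKM in WT, 3.81 and 4.40 in SNAI1_1 and 2.13 and 4.94 in SNAI1_2. Its groups did not overlap either (log2 difference 1.34 ± 0.18, adjusted p = 0.00552), but the call was lost without WT of the first table (0.0594), without WT of the second (0.0638) and without the term for the table (0.0642).

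Cingulin and paracingulin, related coiled-coil proteins on the inner face of the junction, moved in opposite directions. CGN was 6.76 and 6.64 FPKM in WT, 23.4 and 21.9 in SNAI1_1 and 23.4 and 24.2 in SNAI1_2. Its libraries lay close together within each group, and it rose 3.31-fold to 3.65-fold (log2 difference 1.65 ± 0.07, adjusted p = 0.000232). CGNL1 was 22.7 and 18.3 FPKM in WT, 9.61 and 7.62 in SNAI1_1 and 9.18 and 7.08 in SNAI1_2. All 4 deleted libraries were below WT by 2.36-fold to 2.58-fold within a table (log2 difference -1.20 ± 0.07, adjusted p = 0.000533). In WT the level of CGNL1 was thus above that of CGN in both tables, and in all 4 deleted libraries it was below.

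Of the polarity genes, CRB3, the Crumbs protein of epithelia that marks the apical membrane, had the largest difference. It was 4.55 and 5.04 FPKM in WT, 24.7 and 26.1 in SNAI1_1 and 22.3 and 26.5 in SNAI1_2. These are 4.90-fold to 5.44-fold rises within a table, without overlap, with a log2 difference of 2.16 ± 0.08 (adjusted p = 0.000181). CRB3 shares exonic bases with DENND1C on the opposite strand, which was 2.44 and 3.17 FPKM in WT and 11.1 to 15.7 in the deleted libraries (log2 difference 1.95), and how reads were split between them was not tested.

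LLGL2, a basolateral protein that opposes the apical kinase, was 14.8 and 28.5 FPKM in WT, 44.9 and 78.9 in SNAI1_1 and 44.5 and 81.3 in SNAI1_2. Its tables differed in every group, and the ratios within a table were close together, 2.77 to 3.03 (log2 difference 1.50 ± 0.06, adjusted p = 0.000183). Without the term for the table the adjusted p was 0.0923. PARD3, the scaffold of the PAR complex, was 21.2 and 16.2 FPKM in WT, 28.2 and 21.1 in SNAI1_1 and 25.8 and 19.0 in SNAI1_2. This small difference of 0.31 ± 0.06 on the log2 scale (adjusted p = 0.0174) was not called in SNAI1_2 alone (0.0601), without the term for the table (0.525) or on leaving out any 1 of the 6 libraries (0.0586 to 0.112). PARD6B, which joins PARD3 to the kinase, was 1.36 and 0.838 FPKM in WT and 1.33 to 2.19 in the deleted libraries and did not pass (log2 difference 0.37, 95% interval 0.03 to 0.71, adjusted p = 0.0932).

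**Figure D3:**
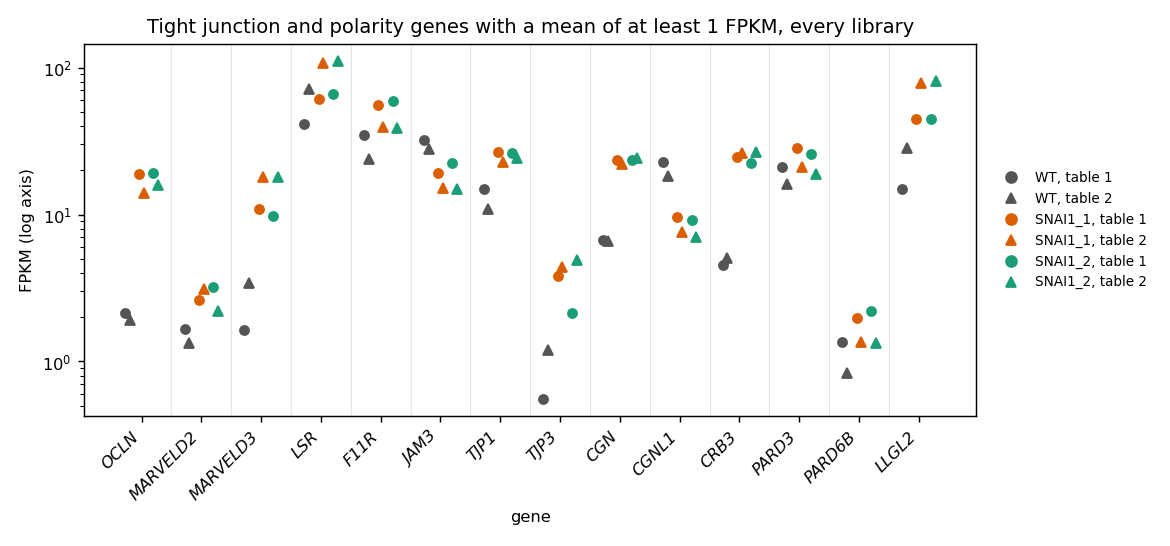
Level of the 14 tested junction and polarity members in every library, in FPKM on a log axis, with colours for groups and symbols for tables. OCLN, MARVELD3 and CRB3 rise by the most, JAM3 and CGNL1 lie lower in all 4 deleted libraries, and LSR and LLGL2 differ between tables within each group.

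**Figure D4:**
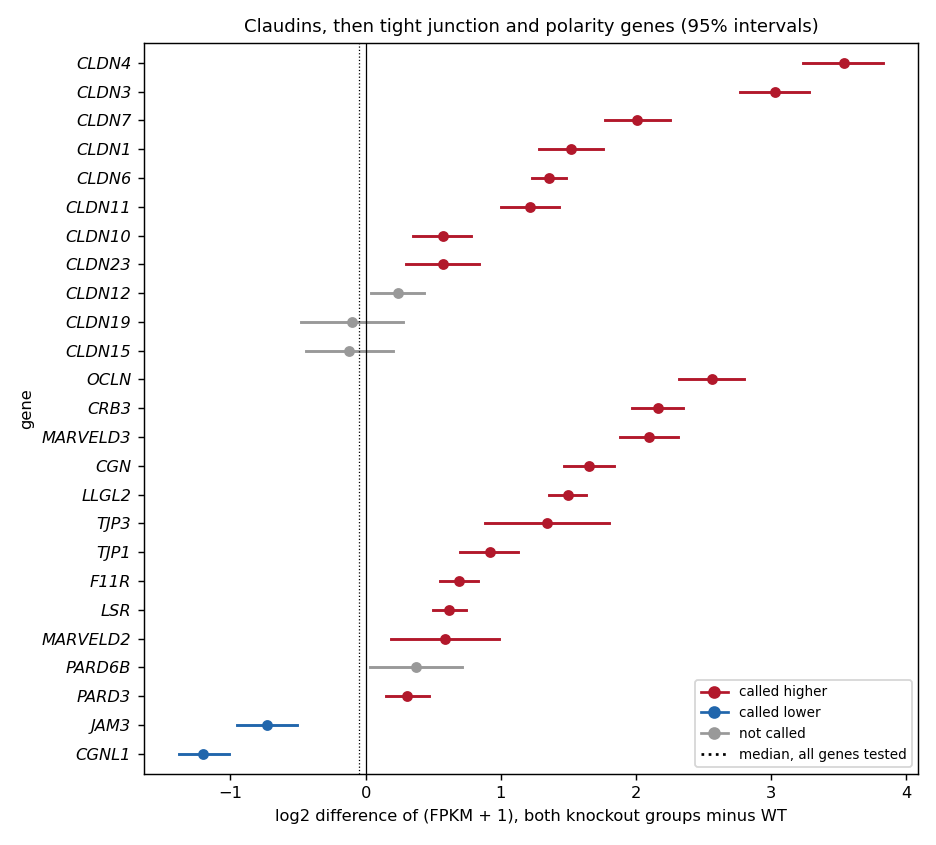
Log2 difference of (FPKM + 1) between both deleted groups and WT for the 25 tested members, claudins above and the others below, with 95% intervals from limma and the median of all genes tested as a dotted line at -0.05. Red marks the 19 genes called higher, blue the 2 called lower (JAM3 and CGNL1) and grey the 4 not called.

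Each deleted group was then set against WT on its own. The same 2 WT libraries enter both comparisons, so they are given side by side. Among members with a WT mean of at least 1 FPKM, 7 of 10 claudins rose and 0 fell in SNAI1_1, and 9 of 13 other members rose and 2 fell, where 13.0% of all genes tested were called higher and 10.9% lower. In SNAI1_2, 7 of the 10 claudins rose and 0 fell, and 8 of the 13 other members rose and 2 fell, where 13.5% were called higher and 12.0% lower. CLDN3 and TJP3, left out of these counts, rose in both. The median log2 difference of the 10 claudins was 0.89 in SNAI1_1 and 0.93 in SNAI1_2.

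Set against each other, the deleted groups gave 0 called members by limma, and 0 of the 25 had an unadjusted p under 0.05. Over all genes tested 0% were called, with 521 genes at an unadjusted p under 0.05. The differences between the groups ran from -0.24 for TJP3, whose SNAI1_2 library of the first table was the lowest deleted one, to 0.16 for CLDN19. The 95% interval was -0.23 to 0.45 for CLDN4, -0.10 to 0.19 for CLDN6, -0.18 to 0.38 for OCLN and -0.78 to 0.29 for TJP3. These intervals are not adjusted for the number of genes and are not limits of detection. With 2 libraries a group, they do not show that the deleted groups were alike.

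A further 41 junction and polarity genes outside the members were counted to set them beside the rest of the pathway. Of 29 tested with a WT mean of at least 1 FPKM, 6 rose, 4 fell and 19 did not pass, where 15.8% of all genes tested were called higher and 15.4% lower, and the median log2 difference was 0.03. With PARD6A and PARD3B, 31 were tested, 8 rose and the median was 0.07. PARD6A and PARD3B, relatives of PARD6B and PARD3 that had under 1 FPKM in WT, were called higher by 1.74 ± 0.12 and 1.48 ± 0.17 on the log2 scale. Both passed the filter only through the deleted libraries, where PARD6A reached 3.60 to 5.42 FPKM and PARD3B 2.11 to 3.16.

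PATJ, a Crumbs complex scaffold, MAGI1, a junction scaffold, and AMOTL2, an angiomotin that binds junction scaffolds, followed, at 1.15, 1.12 and 1.0 on the log2 scale. PATJ was 3.85 and 3.42 FPKM in WT and 2.28-fold to 2.87-fold higher in the deleted libraries of the same table. MAGI1 was 8.03 and 8.93 FPKM in WT and 18.7 to 21.9 in the deleted libraries, and AMOTL2 was 50.4 and 49.3 against 88.7 to 108. None of these overlapped between the groups. The 4 genes that fell were MAGI3 (-0.83), PLEKHA7 (-0.65), PARD6G (-0.42) and LLGL1 (-0.32), named here after their values were seen. LLGL1 and PARD6G thus had the opposite sign to their relatives LLGL2 and PARD6A. PARD6G was called by limma in neither deleted group alone (adjusted p = 0.0647 and 0.0667). Without the term for the table, 1 of the 31 tested genes of this list was called lower.

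**Figure D5:**
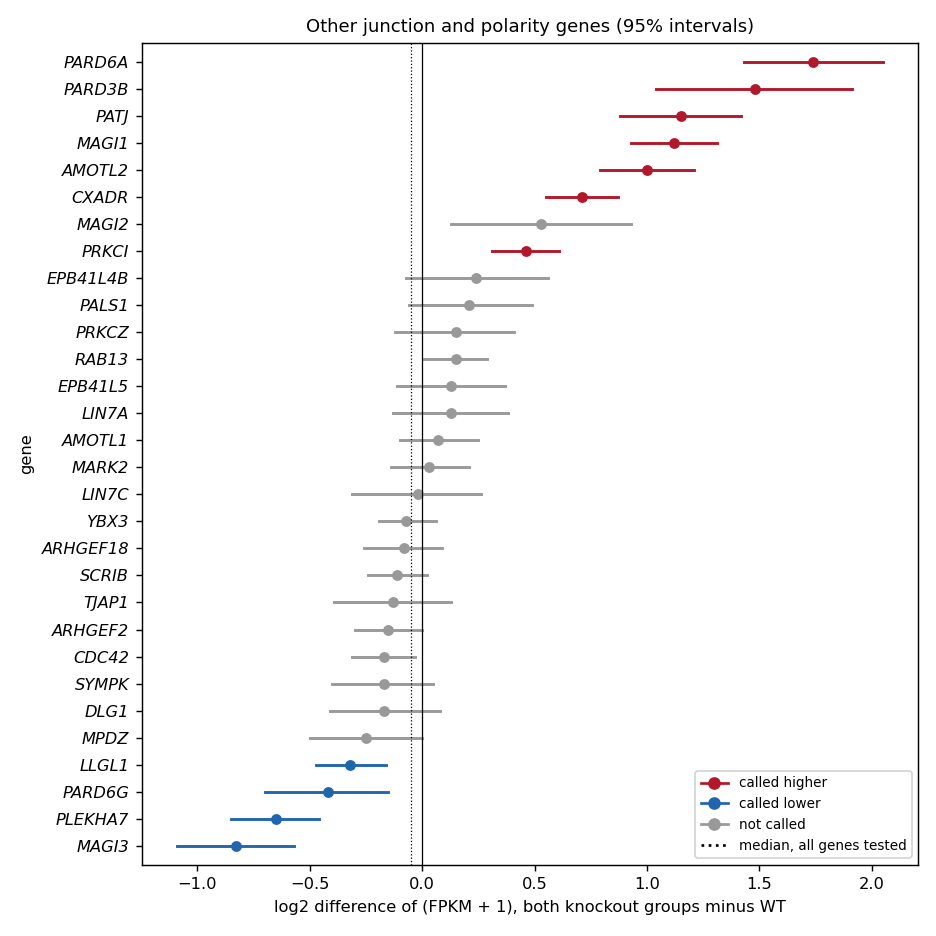
Log2 difference of (FPKM + 1) between both deleted groups and WT for 30 of the 31 tested junction and polarity genes outside the members, with 95% intervals from limma and the median of all genes tested as a dotted line. Red marks the 7 plotted genes called higher, led by PARD6A and PARD3B, blue the 4 called lower and grey the 19 not called.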

How the data were processed

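RNA-seq was performed on H1 cells at day 2, each library being made from 2 ug of total RNA with a TruSeq kit. The authors deposited FPKM values per gene symbol in 2 tables of 38100 and 58324 gene rows, each with 1 library per group, and the submitters' processing notes name BWA, Bowtie, RSEM and hg19. The unit is named in the second table only, and the first holds values of the same range. Column names carry the group without a number, and 0 columns were left unused. Depth is unknown. Symbols listed more than once (94 and 340) were left out.

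Genes with a mean of at least 1 FPKM (13909) were tested on log2(FPKM + 1) with limma (version 3.58.1, R version 4.3.3), with a term for the table because the tables were normalized separately, a mean-variance trend, 2 residual and 3.34 prior degrees of freedom, two-sided p-values and Benjamini-Hochberg adjustment over all genes tested at 0.05. Libraries pair by the table they share, and the second-minus-first-table differences of the groups correlated across genes with r = 0.616, 0.666 and 0.676. Overlapping exons were taken from GENCODE release 29. A protein comparison was not run.

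The members and lists were chosen with earlier results of these data known. Named are the members and, of the list of other junction and polarity genes, the 6 called genes with the largest absolute log2 difference, of which 1 is not reported here. Other genes are named where a result turns on them or, as the text says, after their values were seen. Alternatives were no term for the table, pseudocounts of 0.1 and 10, no filter, a mean of at least 5 FPKM, quantile normalization, median-ratio scaling, no trend, a log2 difference of at least 1 and leaving out each library.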

Additional observations from a re-analysis of the deposited data

How the results depend on the processing

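The counts of calls here cover all genes tested under each setting. CLDN3, TJP3, PARD3B and PARD6A, which passed the main filter only through the deleted libraries, are thus counted wherever they were tested. Among claudins with a WT mean of at least 1 FPKM, the main model called 7 of 10 higher, and the alternatives were not counted in this way. The claudin count held best. It was 6 to 8 of the 8 calls under every alternative for both deleted groups against WT, and for each group alone, with 0 called lower. Without the replicate block, that is the term for the table, 6 claudins and 6 junction and polarity members (13 with it) were called for both deleted groups, 4 of these members (12) for SNAI1_1, 4 (11) for SNAI1_2, 7 of the other junction and polarity genes (12) and 1065 of all genes (4348, of which 2201 were higher), 766 higher and 299 lower. Where calls also needed an absolute log2 difference of 1 or more, 7 junction and polarity members were called in each of the 3 comparisons with WT, 5 of the other junction and polarity genes and 998 of all genes. Without the filter on low values 2139 of all genes were called, and on leaving out 1 library 1728 to 2840. Of 458 alternatives for single genes, 414 kept direction and call, 42 lost the call and 1 gained it (PARD6B without the trend, adjusted p = 0.0272). CLDN19, never called, turned from -0.10 to 0.15 without WT of the first table, and its range on leaving out each library was -0.35 to 0.15. Without the filter CLDN23 (0.0672), MARVELD2 (0.158) and TJP3 (0.0584) lost their calls, and MARVELD2 also did so under quantile normalization (0.0643) and a pseudocount of 10 (0.0547). Without CLDN6 the claudin sum was 2.99 and 2.96 times WT in the first table and 2.89 and 3.01 times in the second. The cause of these changes was not tested. With 2 libraries a group and no read totals, differences of low genes are the least certain.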

Other observations

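CRB2, another Crumbs gene, had a mean under 1 FPKM and was not tested, and is named here after its values were seen. It was 1.45 and 2.15 FPKM in WT, 0.157 and 0.192 in SNAI1_1 and 0.137 and 0.198 in SNAI1_2, 9.20-fold to 11.2-fold lower within a table and without overlap between the groups. CRB3 of the same family rose, and CRB1, also named after its values were seen, was at most 0.0186 FPKM.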
